A study of Mus musculus with 6 samples.

Results

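The genes of eosinophil granule proteins, of the eosinophil growth factor receptor and of an eosinophil lipoxygenase were followed in leukaemic mouse progenitors with and without Dot1l. The set was fixed by symbol and held 9 listed genes: Prg2, Prg3, Epx, Ear1, Ear2, Ear6, Ear10, Il5ra and Alox15. Of these, 5 were found by their symbol among the 31626 genes of each table, and 3 more by their identifier, because the deposited symbols are of an older annotation. The rows deposited as Ear8, Ear12 and Ear7 carry the identifiers now named Ear1, Ear2 and Ear6, and are called the Ear8, Ear12 and Ear7 rows here. Expression of Ear10 was not analysed here, but its promoter sequence was.

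The cells were common myeloid progenitors of C57Bl/6 mice, carrying Dot1l flox/flox alleles and transformed by the retrovirus MSCV-MN1-IRES-GFP, which drives the leukaemia oncogene MN1 from a viral promoter. In the Dot1l-deleted group, 3 libraries came from cells transduced with Cre, which cuts the floxed gene. In the control group, 3 libraries came from cells of the same genotype transduced with the control. All cells grew in M3234, a methylcellulose medium, with FBS, IL3, IL6 and SCF, and were sorted on day 7. IL5, the main growth factor of eosinophils, is not among the cytokines the labels name. No sample had Cre with intact Dot1l alleles, so the effect of Cre cannot be told apart from that of the deletion. Whether replicates were separate cultures or animals is not stated, so the p-values cover the spread among 6 libraries, which can be technical.

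Eosinophils are granulocytes of parasite defence and allergy that ripen from myeloid progenitors under IL5. Their granules are packed with cationic proteins: the major basic proteins encoded by Prg2 and Prg3, the peroxidase encoded by Epx, and in mice a family of eosinophil-associated ribonucleases encoded by the Ear genes. Il5ra encodes the subunit that binds IL5 and signals with the shared chain Csf2rb, and Alox15 encodes a lipoxygenase that oxygenates arachidonic acid. GATA factors, C/EBP factors and PU.1 are known to drive the genes of this lineage. Some members are not private to it: in mice, Il5ra is also known from B-1 cells and Alox15 from resident peritoneal macrophages.

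Promoter sequences from the RefSeq table of build GRCm38.p6 were matched for 7 of the 9 listed genes; Prg2 and Alox15 were not in it. The 250 bases before the annotated start are printed for 5 of them, 5′ to 3′ on the strand of the gene, to show where a GATA motif lies beside a gene of this set and how alike the Ear genes are. Capitals mark GATAA, the GATA factor motif, or its reverse complement. Prg3 lies at chr2:84987965-84988214 on the plus strand, Il5ra at chr6:106749038-106749287 on the minus strand, and Epx at chr11:87875537-87875786 on the minus strand. Ear1 lies at chr14:43819640-43819889 on the minus strand and Ear2 at chr14:44102404-44102653 on the plus strand.
Prg3: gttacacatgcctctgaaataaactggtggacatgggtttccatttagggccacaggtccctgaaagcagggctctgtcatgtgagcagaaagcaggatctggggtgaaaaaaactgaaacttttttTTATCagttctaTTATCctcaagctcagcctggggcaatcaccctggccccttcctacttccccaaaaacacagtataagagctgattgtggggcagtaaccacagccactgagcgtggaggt
Il5ra: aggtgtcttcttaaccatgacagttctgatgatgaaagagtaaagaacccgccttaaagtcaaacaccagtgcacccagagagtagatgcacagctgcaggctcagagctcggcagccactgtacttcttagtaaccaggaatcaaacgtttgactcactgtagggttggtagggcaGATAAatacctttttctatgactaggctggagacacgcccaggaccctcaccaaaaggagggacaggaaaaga
Epx: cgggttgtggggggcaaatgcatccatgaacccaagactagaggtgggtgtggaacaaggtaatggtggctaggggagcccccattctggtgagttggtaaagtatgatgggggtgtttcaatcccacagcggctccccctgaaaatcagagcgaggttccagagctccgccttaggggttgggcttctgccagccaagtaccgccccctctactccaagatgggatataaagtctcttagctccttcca
Ear1: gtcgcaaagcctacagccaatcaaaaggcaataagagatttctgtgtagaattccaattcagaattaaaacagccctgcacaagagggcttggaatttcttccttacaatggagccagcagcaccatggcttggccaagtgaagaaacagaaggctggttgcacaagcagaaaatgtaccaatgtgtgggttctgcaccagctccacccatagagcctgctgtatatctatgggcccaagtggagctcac
Ear2: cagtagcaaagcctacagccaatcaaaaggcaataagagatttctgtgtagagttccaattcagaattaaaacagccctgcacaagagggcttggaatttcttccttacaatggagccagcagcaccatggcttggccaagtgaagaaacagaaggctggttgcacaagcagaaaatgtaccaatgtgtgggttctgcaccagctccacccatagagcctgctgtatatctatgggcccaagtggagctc

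GATAA, searched on both strands, was present upstream of 2 of these 7 genes, against 22.6% of 32851 promoters of the table in windows of the same length. Prg3 held 2 matches on the strand opposite to the gene, from -123 to -119 and from -111 to -107, and Il5ra held 1 from -73 to -69. The C/EBP motif searched, ATTGC, was present upstream of Prg3 and of all 4 Ear genes in the table, against 23.1% of promoters. The PU.1 motif searched, GGAAG, was present upstream of Epx, Prg3, Ear1, Ear2 and Ear10, against 64.1% of promoters. None of the matches overlapped another. The upstream bases of Ear1 and Ear2 were identical at 246 of 248 aligned positions, and the other pairs of Ear genes at 92.6% to 94.3% of theirs, so the 4 Ear genes are not independent examples of their shared motif.

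**Figure D1:**
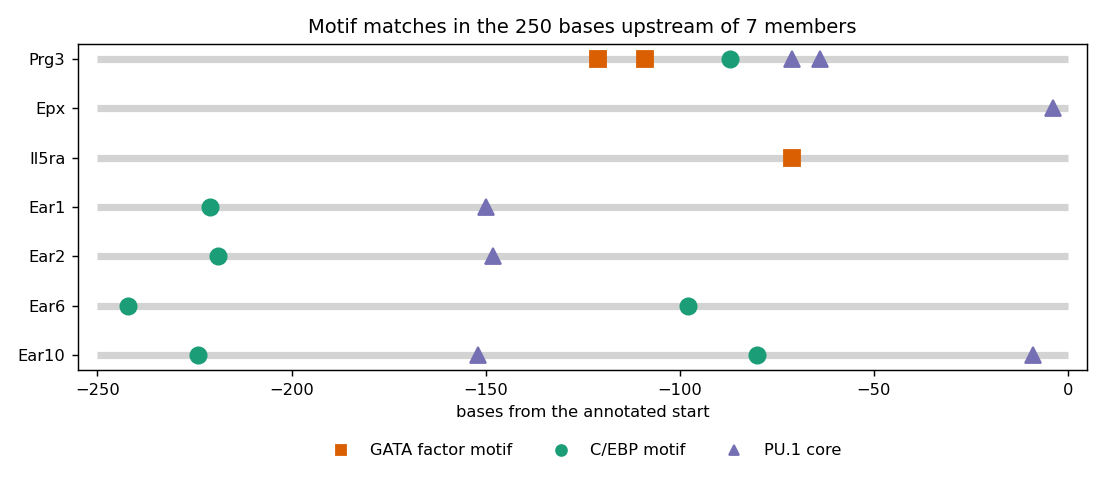
Position of motif matches in the 250 bases upstream of 7 genes; the x axis gives bases from the annotated start, each row is a gene, and squares, circles and triangles mark the centres of the GATA, C/EBP and PU.1 motifs on either strand. The GATA motif appears upstream of Prg3 and Il5ra, and the C/EBP motif upstream of Prg3 and the Ear genes.

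Dot1l, the target of the deletion, was at 8.24, 8.17 and 5.80 FPKM in the Dot1l-deleted libraries and at 20.2, 22.6 and 19.6 FPKM in the controls. FPKM, the unit of the files, is a fragment count divided by gene length and by the size of the library. The mean was 2.81-fold lower (log2 fold change -1.39, SE 0.157, limma adjusted p = 0.000124). Genes that mark the labelled progenitors were present in both groups: Kit was at 44.1 to 66.8 FPKM in Dot1l-deleted libraries and at 111 to 125 FPKM in controls, and Cd34 at 100.5 to 143 FPKM in Dot1l-deleted libraries and at 738 to 765 FPKM in controls. Fcgr3, an Fc receptor gene that is low in normal common myeloid progenitors, was at 213 to 310 FPKM in Dot1l-deleted libraries and at 87.4 to 99.7 FPKM in controls (log2 fold change 1.51, limma adjusted p = 0.000218). Between 17515 and 18034 genes were above 0 in the Dot1l-deleted libraries and between 17310 and 17708 in the controls. The third Dot1l-deleted library stood apart: its median-of-ratios factor was 0.756, against 1.04 and 1.05 in the others of its group and 1.05 to 1.08 in the controls. Fragments were recovered from the steps of the low values. In 71.6% of 3438 genes with a mean of 0.1 to under 1 FPKM, the 6 values were whole multiples of 1 fragment within 0.02 fragments, and depths relative to the first control library were 0.898, 0.739 and 0.873 in the Dot1l-deleted libraries and 1.0, 0.853 and 0.787 in the controls. Fragment numbers below are the smallest whole numbers that give the deposited values, and their intervals cover counting error only.

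Prg2 (ENSMUSG00000027073), the gene of the main major basic protein, was the only one of the 8 rows with a mean of at least 1 FPKM, the level set for testing. Its levels were 5.36, 3.91 and 6.03 FPKM in the Dot1l-deleted libraries, against 0.658, 0.713 and 0.129 FPKM in the controls. Every Dot1l-deleted library lay far above every control. The means were 5.10 ± 1.09 FPKM in Dot1l-deleted cells and 0.500 ± 0.323 FPKM in controls (SD, n = 3 each), a ratio of 10.2. The log2 fold change was 2.03 on the log2(FPKM + 1) scale, Dot1l-deleted minus control (SE 0.220, limma adjusted p = 9.1e-05). Over all 11924 genes tested, 7.43% were called higher and 12.2% lower. Prg2 passed the filter through the Dot1l-deleted libraries alone, since all 3 controls were under 1 FPKM. Without a filter it had an adjusted p of 0.00370 among 20568 genes.

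The Prg2 values stood for 95, 57 and 104 fragments in the Dot1l-deleted libraries and for 13, 12 and 2 in the controls. Summed, that was 256 fragments against 27, a ratio of 9.97 after adjusting for depth (95% exact interval 6.69 to 15.4). The third control, with 2 fragments, was the lowest of the 6, and without it the log2 fold change was 1.84 (adjusted p = 0.000105). Among genes above 0, Prg2 stood at the 51.1, 46.2 and 55.5 percentile in the Dot1l-deleted libraries, near the middle of the expressed genes, and at the 30.8, 30.6 and 15.8 percentile in the controls.

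Prg3 (ENSMUSG00000027072), next to Prg2 in the genome, encodes a second, closely related major basic protein. It was at 0.562, 0.512 and 0.337 FPKM in the Dot1l-deleted libraries, against 0, 0.0986 and 0.160 FPKM in the controls. The groups did not overlap, and the mean was 0.471 ± 0.118 FPKM in Dot1l-deleted cells and 0.0864 ± 0.0809 FPKM in controls (SD, n = 3 each). These values stood for 12, 9 and 7 fragments in the Dot1l-deleted libraries and for 0, 2 and 3 in the controls. The first control, listed at 0, allows a level of up to 0.126 FPKM at 3 fragments. The summed 28 fragments against 5 gave a depth-adjusted ratio of 5.89 with a wide interval, 2.25 to 19.5.

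Epx (ENSMUSG00000052234), the peroxidase gene, was at 0.579, 0.774 and 1.10 FPKM in the Dot1l-deleted libraries, against 0.104, 0.259 and 0.198 FPKM in the controls. The groups did not overlap. The means were 0.818 ± 0.264 FPKM in Dot1l-deleted cells and 0.187 ± 0.0782 FPKM in controls (SD, n = 3 each), a ratio of 4.37. Behind them stood 40, 44 and 74 fragments in the Dot1l-deleted libraries and 8, 17 and 12 in the controls, a depth-adjusted ratio of 4.49 (95% exact interval 3.12 to 6.61). Epx and Prg2 were both highest in the third Dot1l-deleted library, the one whose scale stood apart. Prg3, Il5ra and Alox15 were lowest there as deposited, Prg3 on 7 fragments and Alox15 on 10. After median-of-ratios scaling Prg3 was still lowest there, at 0.446 FPKM against 0.536 and 0.492 FPKM. Alox15 then was not, at 0.222 FPKM against 0.171 and 0.286 FPKM. Il5ra was then highest there, at 0.584 FPKM against 0.430 and 0.477 FPKM.

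**Figure D2:**
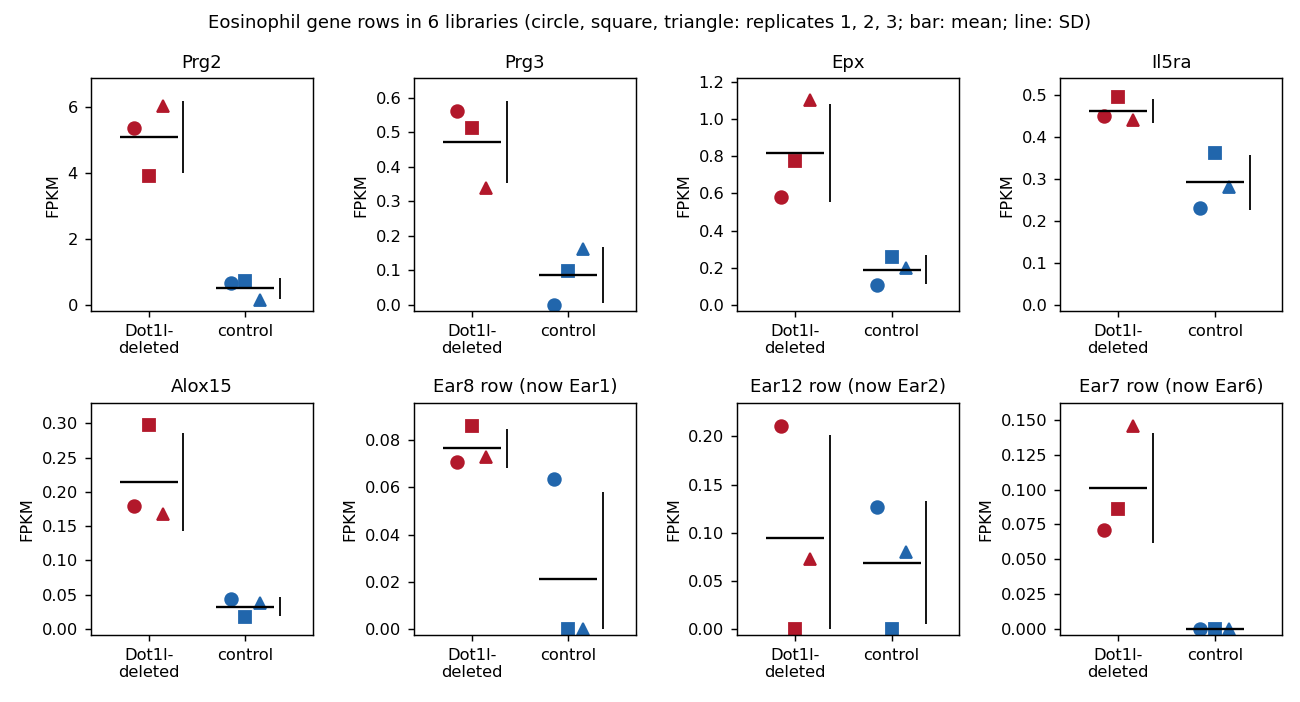
FPKM (y axis, from 0, a scale of its own in each panel) of the 8 rows in the Dot1l-deleted and control libraries; points are libraries, with 1 marker shape for each replicate number, bars are means and vertical lines the SD, drawn no lower than 0. The Dot1l-deleted points lie above the control points in 7 panels, in the Ear8 and Ear7 rows on 1 or 2 fragments a library, and overlap in that of the Ear12 row.

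The ribonuclease genes were near the detection limit in both groups. The Ear8 row (ENSMUSG00000072601, now Ear1) was at 0.0709, 0.0861 and 0.0729 FPKM in the Dot1l-deleted libraries and at 0.0636, 0 and 0 FPKM in the controls. This was 1 fragment in each Dot1l-deleted library and in the first control, so the gap between those 4 values is one of depth. The summed ratio of 3.16 had an interval from 0.253 to 166.

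The Ear12 row (ENSMUSG00000072596, now Ear2) was at 0.211, 0 and 0.0723 FPKM in the Dot1l-deleted libraries and at 0.126, 0 and 0.0803 FPKM in the controls. Its groups overlapped, with 4 fragments against 3 and a ratio of 1.40 (0.237 to 9.57). The Ear7 row (ENSMUSG00000062148, now Ear6) was at 0.0709, 0.0861 and 0.146 FPKM in the Dot1l-deleted libraries and listed at 0 in the 3 controls. These were 4 fragments in all, under the levels of 0.191 to 0.243 FPKM that a control listed at 0 still allows, so the counts do not set the Ear7 row apart between the groups at this depth. Reads of this family can also fall on several genes: of the windows of 50 bases in the GENCODE M21 transcript, 57.4% of Ear1 and 41.5% of Ear2 also occur in transcripts of other Ear genes or Ear pseudogenes, against 1.07% of Ear6. Of the 381 shared windows of Ear1, 275 occur in the pseudogene Ear-ps9. Prg2, Prg3, Epx and Alox15 had no window shared with another gene.

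Il5ra (ENSMUSG00000005364), the receptor gene, showed the smallest ratio among the 5 members with more than 10 fragments. It was at 0.451, 0.496 and 0.442 FPKM in the Dot1l-deleted libraries, against 0.231, 0.362 and 0.282 FPKM in the controls. The groups did not overlap, with means of 0.463 ± 0.0290 FPKM in Dot1l-deleted cells and 0.292 ± 0.0657 FPKM in controls (SD, n = 3 each). The fragments were 42, 38 and 40 in the Dot1l-deleted libraries and 24, 32 and 23 in the controls, a depth-adjusted ratio of 1.60 (95% exact interval 1.19 to 2.15). The counting intervals of Prg2, Prg3, Epx and Alox15 all lay above that of Il5ra, those of Prg3 and Alox15 only just. These intervals leave out the spread between libraries, and limma with no filter did not call Il5ra (adjusted p = 0.0723).

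Alox15 (ENSMUSG00000018924), the lipoxygenase gene, was at 0.179, 0.297 and 0.168 FPKM in the Dot1l-deleted libraries, against 0.0439, 0.0172 and 0.0372 FPKM in the controls. The 3 controls lay well under the lowest Dot1l-deleted value. The means were 0.215 ± 0.0717 FPKM in Dot1l-deleted cells and 0.0328 ± 0.0139 FPKM in controls (SD, n = 3 each), a ratio of 6.55. Only 11, 15 and 10 fragments against 3, 1 and 2 stood behind these values, and the depth-adjusted ratio of 6.31 had an interval from 2.63 to 18.3.

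**Figure D3:**
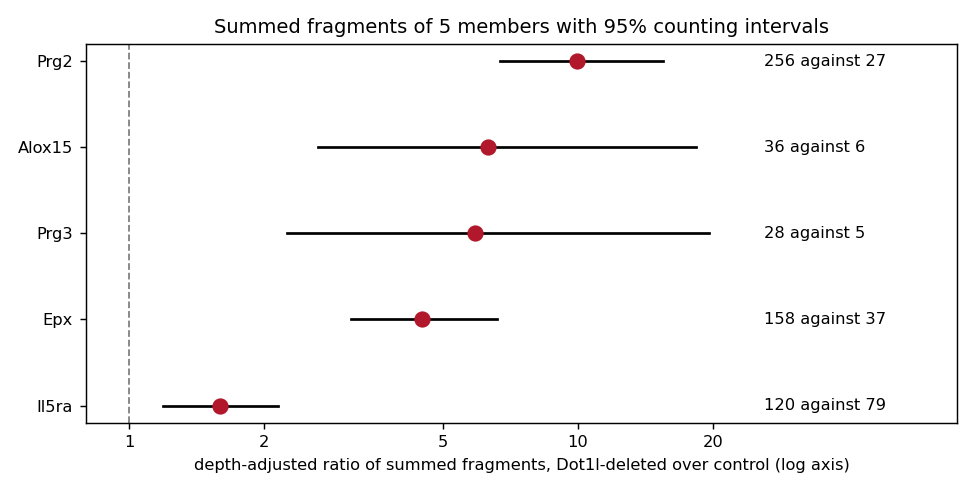
Depth-adjusted ratio of summed fragments, Dot1l-deleted over control (x axis, log scale), for the 5 members with more than 10 fragments; points are ratios, lines are 95% exact counting intervals, and the text gives the summed fragments of the Dot1l-deleted and then the control libraries. Prg2 stands at 9.97 and Il5ra at 1.60, and all 5 intervals lie above a ratio of 1.

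FPKM is scaled to gene length, so the 5 members other than the Ear rows can be ranked within a group. In Dot1l-deleted cells Prg2 was the highest, then Epx, with Prg3 and Il5ra overlapping each other below it, and Alox15 under both. In controls the order was Prg2, Il5ra, Epx, Prg3 and Alox15, and each neighbouring pair overlapped. Prg2 was the highest of the 5 in every library except the third control, where Il5ra, Epx and Prg3 were above it.

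In 7 of the 8 rows every Dot1l-deleted library lay above every control, which over the 20568 genes above 0 held for 12.2% in that direction and for 23.2% in the opposite one. In the Ear8 and Ear7 rows this rested on steps of 1 or 2 fragments, so their order is not read as a difference, which leaves Prg2, Prg3, Epx, Il5ra and Alox15. With 3 against 3 libraries an exact two-sided permutation test cannot give a p under 0.1, which these 7 rows reach. Of the 3809 genes with a mean of 0.1 to under 1 FPKM, 21.1% had every Dot1l-deleted library above every control and 12.6% every Dot1l-deleted library below; the 4 members in that range, Epx, Prg3, Il5ra and Alox15, had the first. Prg3 and Alox15 came into that range through the Dot1l-deleted libraries alone, so the count of 4 supports nothing by itself, while Epx and Il5ra had means within it in both groups. The rows that did not overlap were the same 7 after median-of-ratios scaling. In bulk RNA, fewer cells of a type and less RNA per cell cannot be told apart.

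With no filter, 5 of the 8 rows were called higher, against 6.52% of 20568 genes, and none lower, against 6.68%; limma's estimate was positive in all 8. Called were Prg2, Prg3 (log2 fold change 0.44, adjusted p = 0.0217), Epx (0.61, adjusted p = 0.0235), Alox15 (0.23, adjusted p = 0.0249) and the Ear7 row (0.14, adjusted p = 0.0318), the last on its 4 fragments, too few to read as a difference whatever the p, which leaves 4 rows. Il5ra (0.18) had an adjusted p of 0.0723, the Ear8 row 0.166 and the Ear12 row 0.837. The members under 1 FPKM did not all hold this call in fits chosen after seeing the data. With a mean of at least 0.1 FPKM, limma called Prg2, Epx (adjusted p = 0.0142) and Prg3 (adjusted p = 0.0228) of 5 members higher, against 7.93% of 15733 genes, while Alox15 had 0.0942 and Il5ra 0.206; Prg3 and Alox15 passed that filter through the Dot1l-deleted libraries alone; none was lower, against 9.72% of genes. Adding median-of-ratios scaling, all 5 were called higher, against 21.0% of genes, and leaving out the third Dot1l-deleted library instead, all but Il5ra (adjusted p = 0.107), against 16.4%.

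The 3 tested genes nearest to Prg2 in their pattern over the 6 libraries, by the distance of their centred log2(FPKM + 1) values, were AC090843.4-1 at 0.493, Lsp1 at 0.553 and Bst1 at 0.564. Lsp1, which encodes a leukocyte protein that binds actin, was at 6.98, 6.26 and 6.29 FPKM in the Dot1l-deleted libraries and at 0.865, 0.696 and 0.653 FPKM in the controls. Bst1, which encodes the surface enzyme CD157, was at 6.09, 5.01 and 4.37 FPKM in the Dot1l-deleted libraries and at 0.576, 0.690 and 0.334 FPKM in the controls. The distance weighs mainly the difference between the groups, which all 3 share with Prg2.

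The transcription factor genes of the lineage moved in both directions. All 13 listed genes were tested, and 4 rose and 4 fell (limma adjusted p under 0.05), against 7.43% of all tested genes higher and 12.2% lower. Their median log2 fold change was 0.13, against -0.16 over all tested genes. Cebpe, which encodes the C/EBP factor of terminal granulocyte maturation, was at 53.4, 53.5 and 41.9 FPKM in the Dot1l-deleted libraries and at 7.47, 6.93 and 8.03 FPKM in the controls (log2 fold change 2.57, SE 0.150, adjusted p = 1.48e-06). Cebpb rose 2.91-fold (adjusted p = 9.48e-05), Sfpi1, the gene of PU.1, 2.29-fold and Id2 1.48-fold. The call of Id2 (adjusted p = 0.0403) was lost with no filter (0.0534), with scaling to the total (0.193) and without any 1 library other than the third Dot1l-deleted one (0.0848 to 0.165). Gata1, the GATA factor that eosinophil development needs in mice, was at 15.3, 14.2 and 11.2 FPKM in the Dot1l-deleted libraries and at 28.8, 28.8 and 28.1 FPKM in the controls (log2 fold change -1.03, SE 0.150, adjusted p = 0.000679). Gata2 was 2.12-fold lower (adjusted p = 0.00110), and Zfpm1, whose product binds GATA1, had a log2 fold change of -0.75. Trib1, which eosinophil identity is known to need in mice, was 2.45-fold lower at a low level, 0.669 to 1.09 FPKM in Dot1l-deleted libraries and 1.90 to 2.12 FPKM in controls, a call lost without the second control (adjusted p = 0.050049). Without the third Dot1l-deleted library, 6 of the 13 rose and 6 fell, against 17.4% of all tested genes higher and 21.0% lower in that fit; without any other single library 3 rose and 3 or 4 fell.

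Other surface receptor genes of eosinophils were mostly far above Il5ra in level. Of 15 listed, 11 were tested, with a median log2 fold change of 0.28. In limma 4 rose and none fell, against 7.43% of all tested genes called higher and 12.2% lower. Among the receptor genes with negative estimates only Il1rl1, the IL33 receptor gene, had an unadjusted limma p under 0.05 (0.0205, adjusted p = 0.0834). The row deposited as Siglec5, now Siglecf, the gene of the surface lectin used to gate mouse eosinophils, was at 10.9, 12.9 and 8.90 FPKM in the Dot1l-deleted libraries and at 2.63, 1.87 and 1.93 FPKM in the controls (log2 fold change 1.91, SE 0.169, adjusted p = 2.17e-05). Itgam, the integrin gene of CD11b, rose 6.39-fold (adjusted p = 7.98e-07), Csf2ra, the GM-CSF receptor subunit gene, 3.31-fold (adjusted p = 2.66e-05) and Fcgr2b, an Fc receptor gene, 1.98-fold (adjusted p = 0.00244). Csf2rb, the chain with which IL5RA signals, averaged 94.9 ± 11.0 FPKM in Dot1l-deleted cells and 74.7 ± 3.86 FPKM in controls (SD, n = 3 each; adjusted p = 0.182). Ccr3, the eotaxin receptor gene, was at 0.375, 0.498 and 0.313 FPKM in the Dot1l-deleted libraries and at 0.315, 0.123 and 0.174 FPKM in the controls; its groups overlapped, and it was under the filter. Csf2rb and Ccr3 were chosen for mention after their values were seen. Which cells of the culture carried these receptor transcripts was not tested. Without the third Dot1l-deleted library, 8 of the 11 rose and 1 fell, against 17.4% of all tested genes higher and 21.0% lower in that fit. With median-of-ratios scaling the counts were also 8 and 1, against 23.0% and 22.3% of all tested genes.

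Of the other genes of the ribonuclease A family, to which the Ear genes belong, 17 of 20 were matched and 10 were listed at 0 in all 6 libraries, among them the rows deposited as Ear5, Ear9, Ear11 and Ear14. Of 3 tested, 1 rose and 1 fell, against 7.43% of all tested genes called higher and 12.2% lower. Rnase4 was at 6.03, 5.71 and 4.31 FPKM in the Dot1l-deleted libraries and at 3.37, 1.90 and 2.26 FPKM in the controls (log2 fold change 0.87, adjusted p = 0.00914), a call lost without the second control (adjusted p = 0.0570) and with no filter (0.0504). Rnase6 was 3.69-fold lower (log2 fold change -1.60, adjusted p = 0.00156). Ang, the angiogenin gene, had a log2 fold change of 0.41 (adjusted p = 0.153). Rnase10, chosen for mention after its values were seen and under the filter, was at 1.53, 2.29 and 1.16 FPKM in the Dot1l-deleted libraries and at 0.0452, 0.0265 and 0 FPKM in the controls.

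Genes of the lipoxygenase and leukotriene pathway around Alox15 went in both directions. Of 13 listed genes 7 were tested, 1 rose and 3 fell, against 7.43% of all tested genes called higher and 12.2% lower. The median log2 fold change was -0.16, the value of all tested genes. Alox5, the leukotriene-forming lipoxygenase gene, was at 90.5, 91.5 and 68.6 FPKM in the Dot1l-deleted libraries and at 176, 160 and 156 FPKM in the controls (log2 fold change -0.98, SE 0.175, adjusted p = 0.00270). Alox5 was lower and Alox15 higher in the Dot1l-deleted libraries, and in level Alox5 was far above Alox15 in all 6 libraries. Lta4h rose (0.64, adjusted p = 0.0292), and Pla2g4a (-0.58, adjusted p = 0.0305) and the row deposited as Ptgds2 (-0.57, adjusted p = 0.0366) fell; each of these 3 calls was lost without the first Dot1l-deleted library or without any 1 control, with adjusted p between 0.0628 and 0.156, and that of Lta4h also without the second Dot1l-deleted library (adjusted p = 0.0942). Cysltr1, a cysteinyl leukotriene receptor gene chosen for mention after its values were seen, was under the filter at 0.878, 1.50 and 0.678 FPKM in the Dot1l-deleted libraries and at 0.155, 0.197 and 0.1005 FPKM in the controls.

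**Figure D4:**
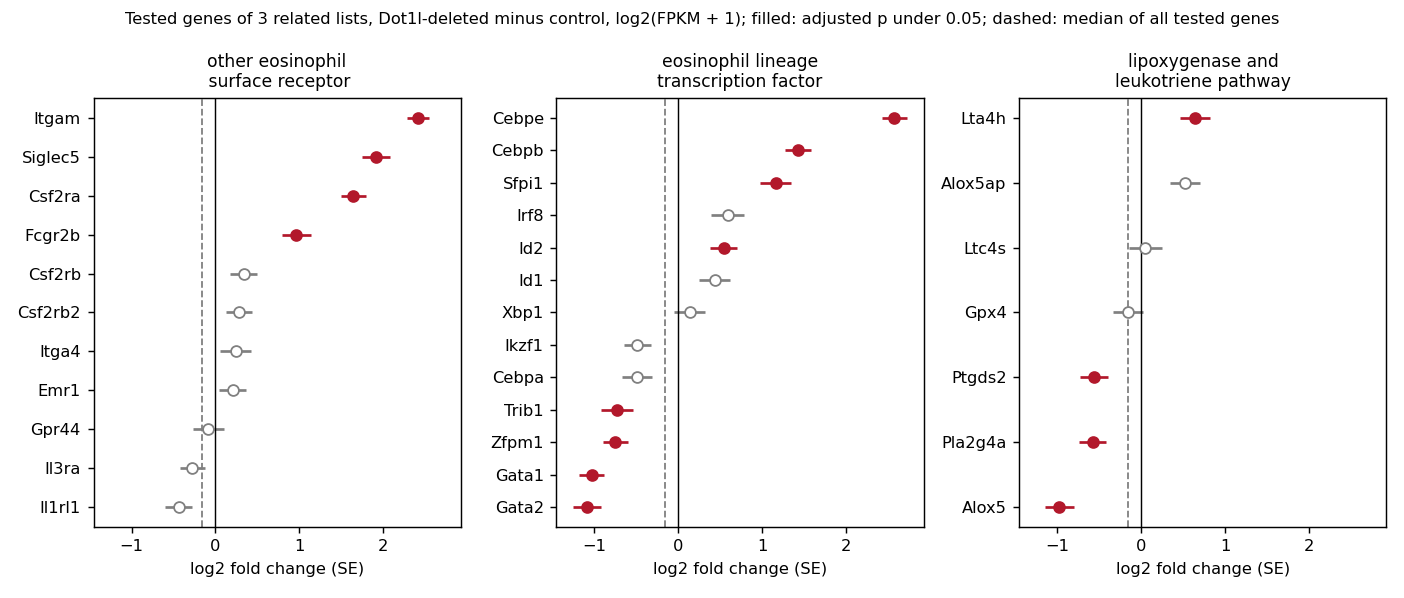
log2 fold change on the log2(FPKM + 1) scale, Dot1l-deleted minus control (x axis), of the tested genes of 3 related lists; points are estimates, lines 1 SE to each side, filled points have a limma adjusted p under 0.05, the solid line marks 0 and the dashed line the median of all tested genes, -0.16. Itgam, Siglec5 and Cebpe lie near 2 or above, and Gata1 and Gata2 near -1.

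Genes of other myeloid cells also changed, the neutrophil genes upward and the mast cell and basophil genes in both directions. For each list here, the share of all tested genes called was 7.43% higher and 12.2% lower. Of 13 listed neutrophil genes 11 were tested, 10 rose and none fell in limma, where all 11 estimates were positive, with a median log2 fold change of 2.41. Their summed level was 24882 to 30881 FPKM in Dot1l-deleted libraries and 2485 to 2910 FPKM in controls. In the Dot1l-deleted libraries most of that sum was S100a8, at 12197 to 14573 FPKM, and S100a9, at 7784 to 9265 FPKM. In controls S100a8 was at 513 to 638 FPKM and S100a9 at 389 to 491 FPKM. S100a8 rose 23.1-fold, S100a9 18.8-fold, Camp 17.6-fold and Ngp 12.6-fold. Within the Dot1l-deleted group, Camp and Ngp were highest in the third library in FPKM as deposited, as were Prg2 and Epx. S100a8 and S100a9 were lowest there as deposited. That library's median-of-ratios factor was 0.756, against 1.04 and 1.05 in the others of its group. The low rank of S100a8 and S100a9 there depends on that scale. Of 13 mast cell and basophil genes 11 were tested, 3 rose and 5 fell. The sum was 1606 to 2337 FPKM in Dot1l-deleted libraries and 2547 to 2794 FPKM in controls. Most of it was Cpa3, which was not called (limma adjusted p = 0.176) and whose groups overlapped. Ms4a2, the gene of an IgE receptor chain, was 3.73-fold lower, Cma1 2.20-fold and Kit 2.04-fold lower, and Prss34 and Hdc also fell. Kit also marks the labelled progenitors, as does Cd34, which was lower too (log2 fold change -2.61, limma adjusted p = 4.29e-06). Gzmb rose 2.19-fold, the row deposited as Mcpt3 3.34-fold and Tpsb2 1.86-fold. The limma calls of Mcpt3 and Tpsb2 were lost with no filter (adjusted p = 0.0677 and 0.0702). Of 12 macrophage genes 5 were tested, 3 rose and 1 fell, with a sum of 207 to 247 FPKM in Dot1l-deleted libraries and 45.2 to 58.3 FPKM in controls. In the Dot1l-deleted libraries most of that sum was Chi3l3, at 142 to 183 FPKM. In controls the largest part was Emr1, at 23.2 to 25.9 FPKM, which was not called (limma adjusted p = 0.399). Emr1 is also in the list of eosinophil surface receptor genes. Chi3l3 rose 14.1-fold, Csf1r 5.15-fold and Cd68 2.32-fold, Cd163 was 2.66-fold lower, and Marco and C1qa were listed at 0 throughout. Of 7 B cell genes only Cd79b was tested, and it rose 3.68-fold, while Ebf1, under the filter, was at 0 to 0.0371 FPKM in Dot1l-deleted libraries and 0.162 to 0.493 FPKM in controls. The sum, most of it Cd79b, was 4.15 to 6.39 FPKM in Dot1l-deleted libraries and 1.41 to 1.87 FPKM in controls, and Ms4a1, the gene of the B cell marker CD20, was listed at 0 in all 6 libraries. The part of these cell types in the levels of the eosinophil genes was not tested.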

How the data were processed

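The submitters' processing notes name Cuffdiff, SAMtools, GSNAP, CASAVA 1.8.2 and build mm9 of the mouse genome, with no role for each; use of strand in counting is not stated there. The libraries came from an Illumina stranded mRNA kit, per the labels' protocols. The authors deposited FPKM values per Ensembl gene, 1 table a library, with no fragment counts. Of 31626 genes, 378 held a placeholder value in a library and were left out, leaving 31248.

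In R 4.3.3, limma 3.58.1 (lmFit, eBayes with trend) tested the 11924 genes with a mean of at least 1 FPKM over 6 libraries on log2(FPKM + 1), two-sided, with Benjamini-Hochberg adjusted p under 0.05; this understates changes of low genes. A log2 fold change is Dot1l-deleted minus control, and other folds divide the group means of FPKM. Fragments were inferred from the steps that low values share between libraries; exact 95% intervals condition on the summed fragments. The 3-fragment floor is per library. Absolute depth is unknown.

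Members and lists were chosen with earlier results of these data known. Named were Dot1l, all members, up to 4 genes of each other list with the smallest adjusted p, and the 3 tested genes nearest to a tested member; other named genes were chosen after their values were seen. Alternatives covered pseudocount, filter, scaling, variance model, sample weights, a replicate block, summed rows and libraries left out. Replicate numbers did not pair the samples. Promoters are from RefSeq (GRCm38.p6), and shared windows from GENCODE M21; no other coordinates were used. The value of 1 list member is not reported here.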

Additional observations from a re-analysis of the deposited data

How the results depend on the processing

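No gene of the set was called lower in any alternative run with limma that tested it. At the filter of 1 FPKM only Prg2 was tested, so the other rows could not be called there. Prg2 kept its direction and its call in all alternatives, with a log2 fold change of 0.87 with a pseudocount of 5 to 3.30 with 0.1. The count of members called higher was 1 and depended on the filter. It was 5 with no filter (against 6.52% of genes) and 5 with no filter and a pseudocount of 0.1 (against 6.69%). Both held the Ear7 row on its 4 fragments. With a mean of at least 0.1 FPKM it was 3 (against 7.93%), and 5 with median-of-ratios scaling added (against 21.0%). With that filter, unscaled and without the third Dot1l-deleted library, it was 4 (against 16.4%). Prg3 and Alox15 passed that filter through the Dot1l-deleted libraries alone. The count was 1 in every alternative that left out 1 library at the filter of 1 FPKM, because Prg2 alone was tested. The count over all genes, 2345 (886 higher and 1459 lower), moved to 5401 (2740 higher and 2661 lower) with median-of-ratios scaling, 5608 with quantile normalization, 5716 with sample weights, 4461 with median-of-ratios scaling and the replicate block, and 4567 with that scaling and without the third Dot1l-deleted library; with a mean of at least 0.1 FPKM it was 6127 with median-of-ratios scaling and 5162 without that library. Leaving out 1 library gave 1428 to 4573, the highest without the third Dot1l-deleted library (2069 higher and 2504 lower) and 1501, 1428 and 1488 without each control in turn; the cause was not tested. Median-of-ratios scaling moved the median over all tested genes to 0.0011 on the log2 scale, against -0.16 as deposited.

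Same-numbered libraries of the 2 groups correlated at -0.0301, -0.0377 and 0.0128 in their deviations from the group means, so the numbers were not taken as pairs. A replicate block gave 2953 genes and 1 member called higher.

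Of the other named genes, Ang was called higher with median-of-ratios scaling, quantile normalization, sample weights and the scaled block, Ptgds2 lost its call with median-of-ratios scaling, with the scaled block (adjusted p = 0.117) and with no filter, and Lta4h lost its call with scaling to the total (0.146). Few fragments limit every member but Prg2, Epx and Il5ra.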

Other observations

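Prg2 and Prg3 are adjacent in the mouse genome, and the genes on either side of the pair were lower while the pair was higher. These neighbours were chosen after the data were seen, with gene order taken from the RefSeq annotation. Slc43a3, which encodes a membrane transporter, was at 42.2, 39.3 and 29.7 FPKM in the Dot1l-deleted libraries and at 68.6, 67.9 and 71.3 FPKM in the controls (limma log2 fold change -0.90, SE 0.170, adjusted p = 0.00378). P2rx3, which encodes an ATP-gated channel best known from sensory neurons, was at 1.72, 1.03 and 0.945 FPKM in the Dot1l-deleted libraries and at 11.4, 11.3 and 9.97 FPKM in the controls (log2 fold change -2.43, SE 0.167, adjusted p = 4.29e-06).

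Lpo, the lactoperoxidase gene near Epx in the genome and of the same peroxidase family, was under the filter at 0.923, 0.769 and 0.542 FPKM in the Dot1l-deleted libraries and at 0.166, 0.208 and 0.120 FPKM in the controls, with no overlap between the groups. That order held for 21.1% of the 3809 genes with a mean of 0.1 to under 1 FPKM. Mks1, between them in gene order, was at 3.09 to 4.54 FPKM in the Dot1l-deleted libraries and at 3.07 to 4.07 FPKM in the controls (adjusted p = 0.641). Alox12, the lipoxygenase gene close to Alox15, was at 0.176, 0.206 and 0.0859 FPKM in the Dot1l-deleted libraries and at 0.0276, 0.0376 and 0 FPKM in the controls, again without overlap and at levels of few fragments. That order held for 12.2% of the 20568 genes above 0, and limma with no filter did not call Alox12 (adjusted p = 0.0519). Of the genes beside Il5ra and Alox15, limma gave adjusted p of 0.509 for Trnt1, 0.137 for Crbn and 0.612 for Pelp1.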
